A study of Mus musculus with 15 samples.

Results

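Transcripts of 5 genes of the plasminogen activator system were followed in a pair of mouse cell lines exposed to dexamethasone, a drug that acts on the glucocorticoid receptor in place of cortisol or corticosterone. The genes were Plau (urokinase), Plaur (the urokinase receptor), Plat (the tissue-type activator), Serpine2 (protease nexin-1) and Serpinb2 (plasminogen activator inhibitor 2). They were chosen by name, with earlier results of these data known, and all 5 had a value among the 15025 genes measured. Cells of 3134, a mammary adenocarcinoma line obtained by transformation of C127 cells of RIII mice, and of AtT-20, a corticotroph line of the anterior pituitary of LAF1 mice, were kept for 48 h in serum depleted of steroids by charcoal and dextran. They then received 100 nM dexamethasone for 2, 4 or 8 h, or were taken at 0 h, which the labels call untreated in one place and vehicle treated in another. The series held 15 Affymetrix mouse exon arrays, 2 for each line and time except AtT-20 at 8 h, which had 1. Both lines are single established lines, and hormone-free cells of the 2, 4 and 8 h times were not analysed here, so the effect of dexamethasone cannot be told apart from that of time in culture.

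Urokinase and the tissue-type activator are secreted proteases that cut plasminogen into plasmin, which dissolves fibrin and degrades extracellular matrix. The urokinase receptor, a protein tied to the cell membrane by a lipid anchor, holds urokinase at the surface of migrating and tumour cells. Serpins such as protease nexin-1 and the plasminogen activator inhibitors trap the activators in inactive complexes. Glucocorticoids are known to lower plasminogen activator activity in many cultured cells, and urokinase takes part in matrix remodelling in mammary tissue.

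The values are log2 intensities per gene, the median over the exon probesets of a gene after quantile normalization of the 15 arrays. A gene was tested if its highest group mean reached log2 6.59, the 40th percentile of all values, and 9919 genes were. This level stands in for a detection limit, since no detection calls were used here. Of the 5 genes, 4 were tested. Serpinb2, with a highest group mean of 3.87, was not. The number of arrays limits the precision, with a median standard error of 0.215 for a log2 difference between groups of 2 arrays and 0.264 for AtT-20 at 8 h. The arrays of each line fall into a pair of sets by the serial numbers in their titles, with replicate 1 of every group in the lower-numbered first set and replicate 2 in the second. No label says what these numbers mark. In 3134 the hormone-induced genes Fkbp5, Per1 and Tsc22d3 rose by 2.84, 2.49 and 2.73 over the mean of the 3 times. In AtT-20, over 2 and 4 h, Per1 rose by 1.25 and Fkbp5 by 0.91, and Tsc22d3 had a difference of 0.66 that did not pass. Corticotroph markers reached the level of 6.59 for 0 of 10 genes in 3134 and 9 of 10 in AtT-20 at 0 h. Of 8 epithelial markers with a value, 2 reached it in 3134 (Krt8 and Krt14), and Krt18, Krt5, Cdh1 and Epcam did not, while 8 of 10 mesenchymal markers did. Most epithelial markers thus stayed below that level in the line labelled mammary adenocarcinoma. In AtT-20 the epithelial count was 2 and the mesenchymal count 1. Markers of immune cells (2 of 6, Cd68 and Cd14) and of endothelium (1 of 5, Cdh5) reached it in 3134, and 0 of either list did in AtT-20.

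Promoter sequences from RefSeq (build GRCm38.p6, from 250 bases before the annotated start to 50 bases from it on) were at hand for 3 of the 5 genes, Plaur, Serpine2 and Serpinb2. A pair of them is shown because the results below turn on these genes. Plaur was bright in 3134 and was called lower there with the hormone, and Serpine2 was bright in AtT-20 and had no called change. The first window lies at chr7:24462233-24462532 on the plus strand, and capitals mark its match to the AP-1 element. The second lies at chr1:79858616-79858915 on the minus strand, and capitals mark its GC boxes.
Plaur promoter: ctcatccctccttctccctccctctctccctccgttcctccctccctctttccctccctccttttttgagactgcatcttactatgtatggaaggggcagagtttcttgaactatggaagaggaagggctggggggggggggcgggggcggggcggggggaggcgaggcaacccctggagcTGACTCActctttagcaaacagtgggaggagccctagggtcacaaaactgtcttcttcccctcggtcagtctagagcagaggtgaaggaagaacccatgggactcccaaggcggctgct
Serpine2 promoter: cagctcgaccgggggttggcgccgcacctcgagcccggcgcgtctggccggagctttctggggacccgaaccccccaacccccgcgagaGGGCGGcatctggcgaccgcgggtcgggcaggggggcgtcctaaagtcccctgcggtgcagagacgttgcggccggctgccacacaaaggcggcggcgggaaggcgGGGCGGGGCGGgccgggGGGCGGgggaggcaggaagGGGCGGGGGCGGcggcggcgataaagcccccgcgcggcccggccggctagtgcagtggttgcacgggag

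The AP-1 element was searched as TGANTCA on both strands. The Plaur window held 1 match, TGACTCA, from base -69 to base -63 relative to the start, and such a match was present in 7.81% of 32851 RefSeq promoters of the same length. The Serpine2 window held 0 matches to it. The GC box, searched as GGGCGG on both strands, matched 6 times in the Serpine2 window and 3 times in the Plaur window, with adjoining matches sharing a base in places, and 35.7% of all promoters held at least 1. The GC content was 77.7% for Serpine2 and 59.3% for Plaur, against a median of 52.7% over all promoters. Serpinb2 has a pair of starts in this set of promoters, and both windows held the AP-1 match TGAATCA and a TATA box, TATAAA, which 13.6% of promoters held. The windows overlap, and these are the same sites seen from each start. The AP-1 match begins at base -94 from the first start and -181 from the second, and the TATA box at -29 and -116. The annotated loci of Serpinb2 (from chr1:107500892) and Plaur (from chr7:24460937) begin before their windows, and sequence further upstream was not searched. The glucocorticoid receptor element, a palindrome searched on both strands, matched 0 of these windows and 0.475% of all promoters. A match is a description of these letters and not a bound site.

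Urokinase transcripts fell in 3134 cells at every time of exposure and showed no called change in AtT-20 cells. In 3134, Plau was at log2 8.05 and 8.02 on the arrays at 0 h, 5.98 and 6.30 at 2 h, 6.44 and 6.48 at 4 h, then 6.95 and 6.80 at 8 h. Each of the 6 treated arrays lay more than 1 log2 unit below both arrays at 0 h. The log2 difference from 0 h was -1.90 ± 0.194 at 2 h (SE, limma adjusted p = 0.000294), which is 3.73-fold lower. It was -1.58 ± 0.194 at 4 h (adjusted p = 0.000967), and the 8 h difference was -1.16 ± 0.194 (adjusted p = 0.00800). Among the 9919 genes tested, 5 had a lower difference than Plau at 2 h, 8 at 4 h and 26 at 8 h. The group means of 6.14 at 2 h and 6.46 at 4 h lie below the level needed for testing. Set against that level, the transcript was at least 2.72-fold lower at these times. Bulk RNA cannot tell fewer expressing cells from less RNA per cell.

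Plau was lower in each of the 6 comparisons within a set. The arrays of the first set gave -2.07 at 2 h, -1.61 at 4 h and -1.10 at 8 h, and those of the second set gave -1.73, -1.55 and -1.23. Over the mean of the 3 times the difference was -1.55 ± 0.158 (adjusted p = 0.000190). At 8 h Plau was 0.74 above 2 h (95% interval 0.31 to 1.16), which did not pass over all genes (adjusted p = 0.246), where 0.0907% of all genes were called in either direction. On the deposited scale, without quantile normalization, the mean difference was -1.84 and was not called (adjusted p = 0.329), while with the set as a block on that scale it was called. The fall at 8 h was no longer called without the second 8 h array (-1.09, adjusted p = 0.0725), without the first 0 h array (adjusted p = 0.0772) or without the second (adjusted p = 0.0795).

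Transcripts of the urokinase receptor also fell at 2 h. In 3134, Plaur was at 8.26 and 8.10 at 0 h, 6.98 and 7.12 at 2 h, 7.30 and 7.14 at 4 h, then 7.95 and 7.41 at 8 h. All treated arrays were below both 0 h arrays, but the first array at 8 h lay only slightly below them. All 8 stayed above the level needed for testing. Plaur fell by 1.13 ± 0.220 on the log2 scale at 2 h (limma adjusted p = 0.0279), which is 2.18-fold lower. At 4 h the difference was -0.96 ± 0.220 (adjusted p = 0.0513, but 0.00388 with the set as a block). At 8 h it was -0.50 ± 0.220 (adjusted p = 0.399). The mean of the 3 times was -0.86 ± 0.179 (adjusted p = 0.0252). The call at 2 h was lost without any 1 of the 4 arrays compared, with adjusted p from 0.155 to 0.274. It was also lost on the deposited scale (adjusted p = 1.00), with arrays centred on the median (0.0532), with bright probesets only (0.0537) and with no filter on low values (0.0646). The call over the 3 times was lost without either 0 h array (adjusted p = 0.355 without the first, 0.188 without the second), without the first 2 h array (adjusted p = 0.0649) or without the second 4 h array (adjusted p = 0.0595).

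The tissue-type activator Plat had smaller differences in 3134. Its values were 7.55 and 7.43 at 0 h, 6.86 and 7.06 at 2 h, 6.71 and 6.94 at 4 h, then 7.23 and 7.08 at 8 h. All 6 treated arrays lay below both 0 h arrays. The difference at 2 h was -0.53 ± 0.175 (adjusted p = 0.396). At 4 h it was -0.67 ± 0.175 (adjusted p = 0.102), and at 8 h it was -0.33 ± 0.175 (adjusted p = 0.527). Their mean was -0.51 ± 0.143 (adjusted p = 0.116). With the set as a block, the difference at 4 h (adjusted p = 0.0147) and the mean (adjusted p = 0.0193) passed.

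The members counted 2 lower and 0 higher of 4 tested in 3134 at 2 h, where 0.282% of all tested genes were called lower. At 4 h 1 of 4 was called lower (0.554% of all genes) and at 8 h also 1 of 4 (0.544%). Over the mean of the 3 times 2 of 4 were called lower, against 0.625% of all genes. With the set as a block, 3 of 4 were called lower at 4 h (1.91% of all genes) and over the mean of the 3 times (2.52%). These shares of so short a list, chosen with earlier results of these data known, describe the listed genes only. The comparisons at the 3 times share the 0 h arrays.

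**Figure D1:**
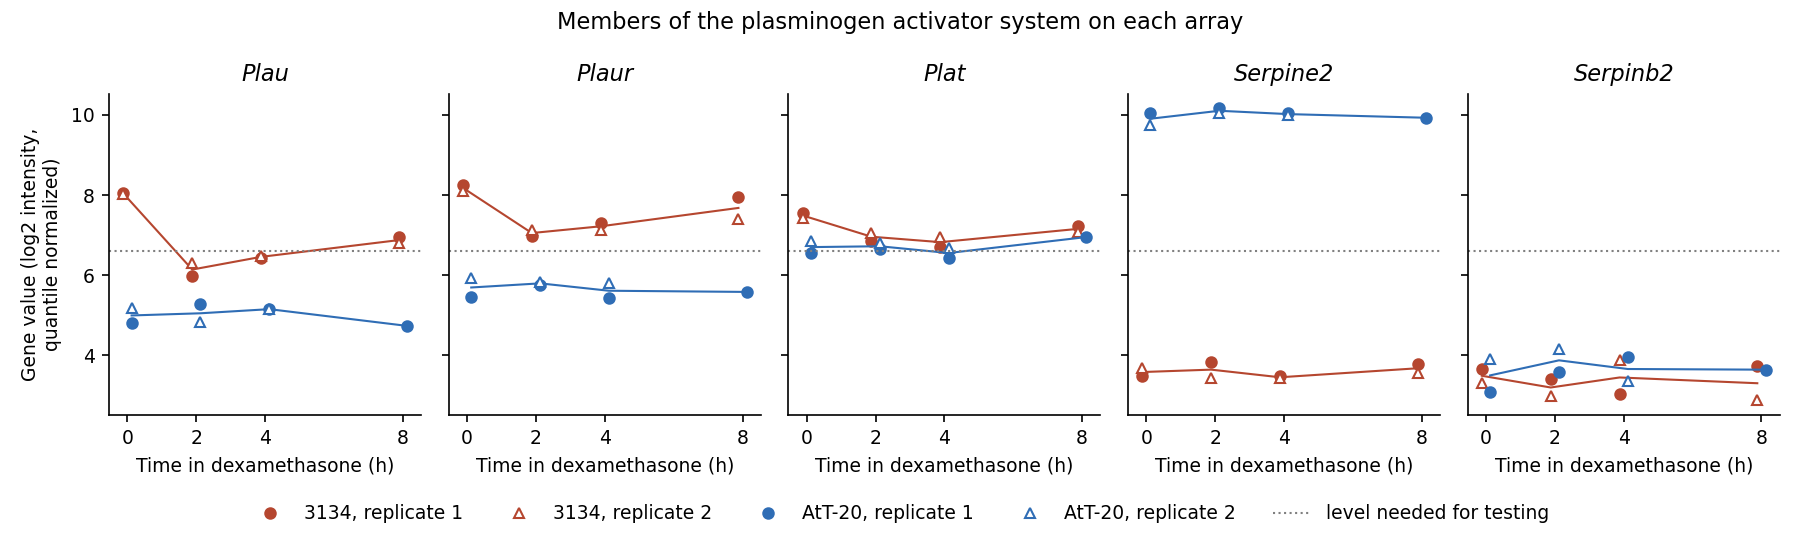
Log2 gene value (vertical axis) on each array against hours in dexamethasone (horizontal axis), with 1 panel for each gene, 3134 in red and AtT-20 in blue, filled circles for replicate 1, open triangles for replicate 2, lines through the means and a dotted line at the level needed for testing, 6.59. In 3134 the means of Plau and Plaur are lowest at 2 h and that of Plat at 4 h, Serpine2 lies between 9.76 and 10.17 in AtT-20 and between 3.43 and 3.84 in 3134, and Serpinb2 reaches at most 4.15.

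Of the member serpins, Serpine2 showed no called change with the hormone and Serpinb2 was too dim to be tested. Serpine2, which inhibits thrombin as well as urokinase and the tissue-type activator, was at 3.48 and 3.68 at 0 h, 3.84 and 3.44 at 2 h, 3.47 and 3.43 at 4 h, then 3.78 and 3.57 at 8 h in 3134. Its mean difference there was 0.0079 ± 0.148 (adjusted p = 0.996), and since all values lie far below the level needed for testing, little can be read from them about a fall. In AtT-20 it was bright, at 10.05 and 9.76 at 0 h, 10.17 and 10.04 at 2 h, 10.05 and 9.99 at 4 h, and 9.93 on the single array at 8 h. The 0 h and treated arrays overlap. Serpinb2 ranged from 2.88 to 3.87 over the 8 arrays of 3134 and from 3.09 to 4.15 over the 7 of AtT-20. It stayed below the level needed for testing on all 15 arrays and was not tested.

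In AtT-20 cells 0 of the 4 tested members were called at 2, 4 or 8 h, where 0.0907%, 0.171% and 0.121% of all genes were called in either direction. At an unadjusted p under 0.05, 0 of these 4 genes passed at any of the 3 times. Plau was at 4.81 and 5.18 at 0 h, 5.27 and 4.82 at 2 h, 5.16 and 5.15 at 4 h, and 4.73 at 8 h. Plaur was at 5.46 and 5.93 at 0 h, 5.76 and 5.83 at 2 h, 5.43 and 5.79 at 4 h, and 5.58 at 8 h. The gene value was below the level needed for testing on every AtT-20 array for both genes, so little can be read about a fall from there. Single probesets were above that level in AtT-20 at 0 h, 3 for Plau (from 6.68 to 7.70) and 1 for Plaur (6.87). In 3134 these probesets had the smallest mean differences with the hormone within their gene, from -1.11 to -0.11 for Plau and -0.31 for Plaur. What they measure was not tested. The mean difference over 2 and 4 h in AtT-20 was 0.11 for Plau (95% interval -0.26 to 0.47) and 0.01 for Plaur (95% interval -0.41 to 0.43).

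Plat lay close to the level needed for testing in AtT-20. It was at 6.55 and 6.85 at 0 h, 6.65 and 6.79 at 2 h, 6.43 and 6.68 at 4 h, and 6.95 at 8 h. Its mean difference over 2 and 4 h was -0.06 (95% interval -0.39 to 0.27), and that of Serpine2 was 0.16 (95% interval -0.19 to 0.50). The 8 h array of AtT-20 had no replicate, and its spread was taken from the other groups. At that time the differences were 0.25 ± 0.215 for Plat, -0.26 ± 0.237 for Plau, -0.11 ± 0.269 for Plaur and 0.02 ± 0.222 for Serpine2.

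Whether the lines differed in response was tested directly, as the difference from 0 h in 3134 minus that in AtT-20. For Plau this was -1.85 ± 0.237 over the mean of 2 and 4 h (limma adjusted p = 0.00347), and the 2 h value was -1.95 ± 0.274 (adjusted p = 0.00992). The 4 h value was -1.74 ± 0.274 (adjusted p = 0.0152). Plau was the 1 member of 4 tested that was called over the mean, where 0.151% of all genes were called lower. At 2 h and at 4 h the count was also 1 of 4, against 0.0504% and 0.131% of all genes. The members were chosen with earlier results of these data known, so these counts describe the members only. For Plaur the difference was -1.05 ± 0.269 over the mean (adjusted p = 0.149, but 0.0132 with the set as a block) and -1.23 at 2 h (adjusted p = 0.255, but 0.0194 with the block). With the block the count over the mean was 2 of 4, where 0.887% of all genes were called lower. The call for Plau at 2 h was lost without either 3134 array at 0 h, the first 3134 array at 2 h or the first AtT-20 array at 2 h, with adjusted p from 0.0572 to 0.0679. At 4 h it was lost without any 1 of 7 of the 8 arrays compared, with adjusted p from 0.0517 to 0.0891. Over the mean it was kept without each array in turn. On the deposited scale the call was lost at 2 h (-2.18), at 4 h (-2.07) and over the mean (-2.13), with an adjusted p = 1.00 for each. For Plat the difference over the mean was -0.54 ± 0.215 (adjusted p = 0.709) and for Serpine2 -0.19 ± 0.222 (adjusted p = 1.00). The lines started from different levels of Plau and Plaur, and in AtT-20 the gene values of both began below the level needed for testing. What share of the difference in response this makes was not tested.

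**Figure D2:**
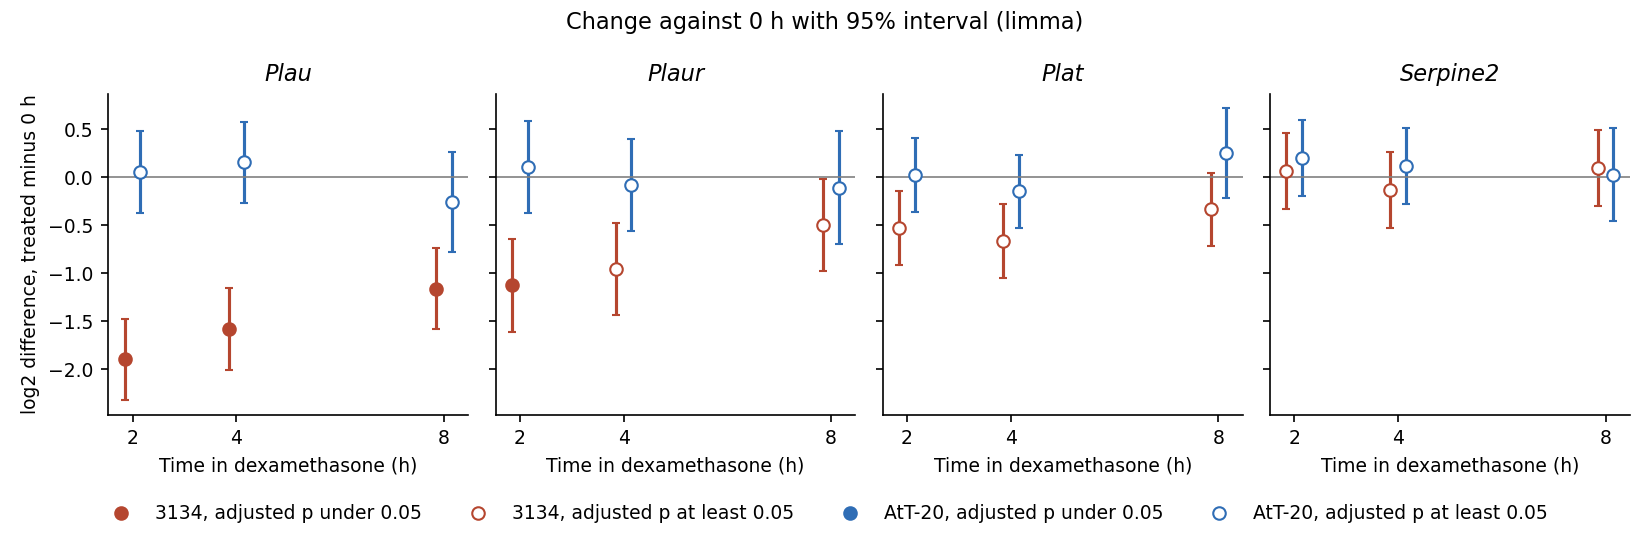
Log2 difference from 0 h (vertical axis) at 2, 4 and 8 h (horizontal axis) in 3134 (red) and AtT-20 (blue), with bars for the 95% interval and filled points where the limma adjusted p was under 0.05. Plau in 3134 runs from -1.90 at 2 h to -1.16 at 8 h, Plaur from -1.13 to -0.50, and every AtT-20 interval spans 0.

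Before hormone the lines differed in all 4 tested members. At 0 h Plau averaged 8.04 ± 0.018 in 3134 and 4.99 ± 0.260 in AtT-20 (SD, n = 2 each), a log2 difference of 3.04 ± 0.194 (limma adjusted p = 5.94e-08). Plaur averaged 8.18 ± 0.110 in 3134 and 5.69 ± 0.334 in AtT-20, a difference of 2.49 ± 0.220 (adjusted p = 1.13e-06). Plat averaged 7.49 ± 0.088 in 3134 and 6.70 ± 0.212 in AtT-20, a difference of 0.79 ± 0.175 (adjusted p = 0.00227). Serpine2 ran the other way, at 3.58 ± 0.141 in 3134 and 9.90 ± 0.206 in AtT-20, a difference of -6.32 ± 0.181 (adjusted p = 1.57e-10). The arrays of the lines did not overlap for any of these 4 genes. Against the level needed for testing, Plau was at least 2.72-fold and Plaur at least 3.003-fold higher in 3134, and Serpine2 was at least 9.93-fold higher in AtT-20. Serpinb2 averaged 3.49 in 3134 and 3.50 in AtT-20, and no fold is given. Of the 4 tested members 3 were called higher and 1 lower in 3134, but 24.3% of all genes were called higher and 30.3% lower between these lines, so the count alone says little of the members. Plau and Plaur entered the test only through 3134 and Serpine2 only through AtT-20, which largely fixed their directions.

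All exon probesets of Plau had a difference of the same sign in 3134. Over the mean of the 3 times, 12 of 12 had a negative difference, with a median of -1.61, and 4 were called lower, against 0.0564% of the 147093 probesets tested. Their differences ran from -2.65 for probeset 4864864 to -0.11 for probeset 5018593. Probeset 5018593 was at 8.17 at 0 h, 8.00 at 2 h, 8.03 at 4 h and 8.17 at 8 h in 3134. At 0 h it was at 8.17 in 3134 and 7.70 in AtT-20, a difference of 0.47 that did not pass. Probeset 5225677 had the next smallest difference with the hormone (-0.67) and the smallest between the lines (0.36). These 2 probesets were singled out after their values were seen, and what they measure was not tested. For Plaur 10 of 10 probesets had a negative difference, from -1.34 to -0.31, and for Plat 18 of 18, from -1.11 to -0.16, with 0 called for either gene. For Serpine2 6 of 12 were negative, with a median of -0.0086. Probesets of a gene share its arrays, so these counts describe the arrays and are not replicates.

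Unequal change among the probesets of a gene was tested with limma's diffSplice, which takes 1 spread for all probesets of a gene. For the mean response in 3134, 0 of the 4 tested members were called, while 0.444% of all genes were. Plau had an adjusted p = 0.302, but 0.00571 with the set as a block. When each probeset kept its own spread, a test added after seeing the data, Plau had an adjusted p = 1.00, and 0.317 with the block. At 0 h between the lines, Serpine2 (adjusted p = 4.18e-09), Plaur (5.34e-06) and Plau (3.20e-05) were called and Plat (0.968) was not, where 33.9% of all genes were called. For Serpine2 all 12 probesets were called lower in 3134, with differences from -7.72 to -2.36. For Plau 10 of 12 were called higher, for Plaur 8 of 10 and for Plat 7 of 18, while 17.9% of all probesets were called higher and 18.0% lower. Serpine2, Plaur and Plau each lie below the level needed for testing in 1 of the lines, and the part of that in the unequal differences was not tested.

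**Figure D3:**
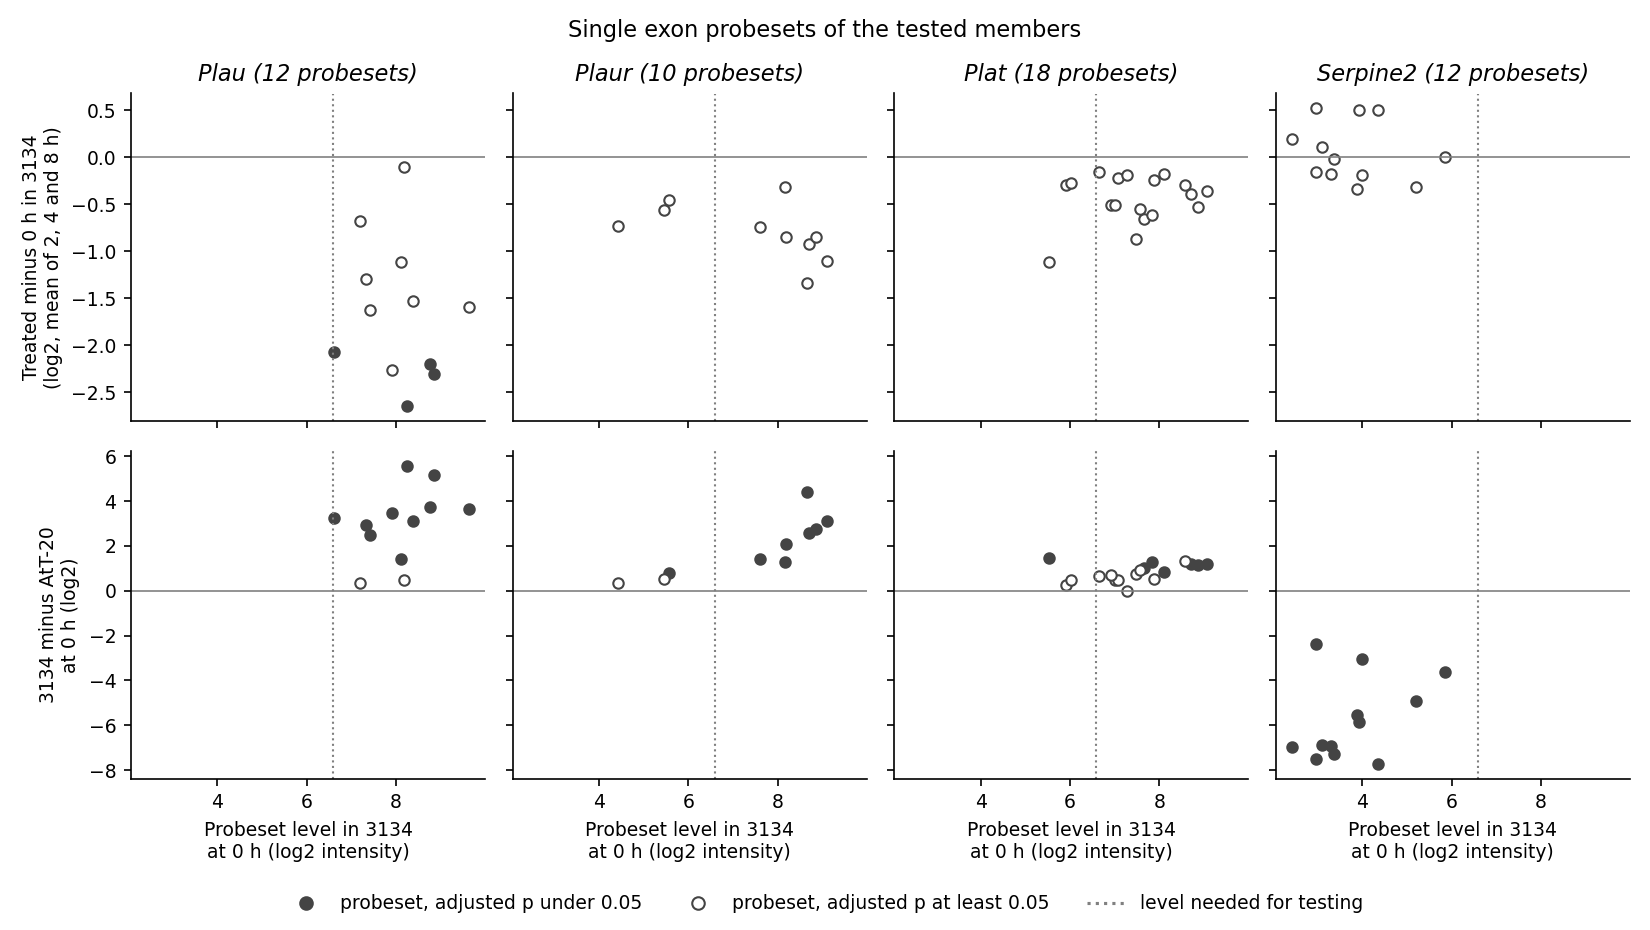
Each point is an exon probeset of Plau, Plaur, Plat or Serpine2, placed by its log2 level in 3134 at 0 h (horizontal axis) and by its log2 difference (vertical axis), treated minus 0 h in 3134 in the upper row and 3134 minus AtT-20 at 0 h in the lower row, filled where the limma adjusted p was under 0.05, with a dotted line at 6.59. Plau, Plaur and Plat points all lie below 0 in the upper row, from -2.65 to -0.11 for Plau, and all Serpine2 points lie below 0 in the lower row.

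The other genes of the system were taken from lists by role, also chosen with earlier results of these data known. A gene could enter the test through its level in either line, or through treated cells alone, and one that lies below the level of 6.59 at 0 h has little room to show a fall. The list of inhibitors of the activators and of plasmin had 12 genes with a value. Of these, 5 were tested in 3134 over the mean of the 3 times. At 0 h there, 2 of these 5, Serpinb6a and Pebp1, were at that level. The list was chosen by name, and whether each listed gene, Pebp1 among them, inhibits the activators or plasmin was not tested. Of the 5, 1 rose and 0 fell, where 1.79% of all genes were called higher and 0.625% lower. The 1 was Serpina3n, an acute phase serpin known rather for inhibiting leukocyte proteases, at 5.86 and 5.78 at 0 h, 6.37 and 6.02 at 2 h, 6.82 and 7.01 at 4 h, then 7.44 and 7.18 at 8 h. Its mean difference was 0.99 ± 0.220 (limma adjusted p = 0.0362). Serpina3n was below the level needed for testing at 0 h in both lines and entered the test only through the 4 and 8 h arrays of 3134, so a fall could hardly have been called for it. Set against that level, it was at least 1.25-fold higher at 4 h and at least 1.65-fold higher at 8 h. The call was lost without any 1 of 7 of the 8 arrays of 3134, with adjusted p from 0.0546 to 0.356, as well as with no filter on low values (0.0733) and with an intensity trend and robust prior (0.0690). Serpinb6a (-0.08) did not pass. Neither did Serpini1, the neuronal inhibitor of the tissue-type activator (-0.37), and the C1 inhibitor Serping1 (0.15), which at 4.44 each at 0 h in 3134 were tested only through AtT-20. The median of the list was 0.04, against -0.02 over all genes. The plasmin inhibitors Serpinf2 and A2m were below the level needed for testing.

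Genes of plasminogen docking and of receptor partners were called neither way in 3134. Plasminogen itself, Plg, was below the level needed for testing, at 4.64 ± 0.132 in 3134 and 4.48 ± 0.128 in AtT-20 at 0 h. Of 6 tested genes of zymogen, docking and activation, 0 rose and 0 fell, with a median of -0.0069. Of these, 4 were at the level needed for testing in 3134 at 0 h, and St14 (5.31) and Hpn (6.16) were not. Anxa2 (-0.13) and S100a10 (0.10), which together form a docking site for plasminogen and the tissue-type activator, the plasminogen receptor Plgrkt (-0.21) and the membrane protease St14 (0.05) did not pass. Of 12 tested partners, clearance receptors and adhesion ligands, 0 were called either way, with a median of -0.06. At 0 h in 3134, 10 of the 12 were at that level, and Vldlr (4.00) and Vtn (5.29) were not. They included the collagen receptor Mrc2 (-0.34), the mannose 6-phosphate receptor Igf2r (-0.23), Lrp1, which clears complexes of urokinase with its inhibitors (-0.30), and the fibronectin receptor subunit Itga5 (0.37). The adjusted p of these 4 genes ran from 0.580 to 0.708.

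Among substrates, 8 of 19 were tested in 3134, and 2 fell and 0 rose, where 0.625% of all genes were called lower and 1.79% higher. Thbs1, the gene of the matrix glycoprotein thrombospondin 1, was at 12.96 and 13.03 at 0 h, 12.15 and 12.12 at 2 h, 11.99 and 12.13 at 4 h, then 12.35 and 12.31 at 8 h, and fell by 0.82 ± 0.153 on the log2 scale (adjusted p = 0.0133). Vegfa, the endothelial growth factor released from matrix by plasmin, was at 9.79 and 9.78 at 0 h, 9.08 and 9.18 at 2 h, 9.03 and 9.25 at 4 h, then 9.01 and 9.26 at 8 h, and fell by 0.65 ± 0.130 (adjusted p = 0.0188). Treated and 0 h arrays did not overlap for either gene. Both calls were lost without either 0 h array, with adjusted p of 0.147 and 0.216 for Thbs1 and 0.250 and 0.236 for Vegfa, and that of Vegfa also without the first 2 h array (0.0507). The growth factor gene Pdgfc (0.29) and the membrane protease gene Mmp14 (-0.58) did not pass. The median of the list was -0.22. In AtT-20, where 3 of the 8 were at the level needed for testing at 0 h, 1 fell over the mean of 2 and 4 h, where 0.0101% of all genes were called lower and 0.171% higher. This was again Thbs1, at 8.59 and 8.49 at 0 h, 7.10 and 7.70 at 2 h, 6.81 and 6.68 at 4 h, and 6.41 at 8 h. It fell by 1.47 ± 0.163 on the log2 scale (adjusted p = 0.00219), was called without each array in turn, and was not called when AtT-20 arrays alone were fitted (adjusted p = 0.0965) or when the arrays of each line were normalized apart (0.0961). Its response did not pass as different between the lines (0.57, adjusted p = 0.713).

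A list of 15 transcription factor genes held the glucocorticoid receptor gene and members of families known to act on the urokinase gene (AP-1, Ets and NF-kB). Whether each of them acts on that gene was not tested. Of the 15, 13 were tested for change. In 3134, 2 fell and 0 rose, where 0.625% of all genes were called lower and 1.79% higher, with a median of -0.41 for the list. The glucocorticoid receptor gene Nr3c1 fell by 0.69 ± 0.137 (adjusted p = 0.0181) and the NF-kB subunit gene Rel by 0.63 ± 0.144 (adjusted p = 0.0452). The call for Nr3c1 was lost without either 0 h array (adjusted p = 0.181 and 0.276), and that for Rel was kept in 2 of 15 fits without 1 array, with adjusted p of up to 0.472. The call for Rel was also lost with bright probesets only (0.0697), with no filter on low values (0.0996), with arrays of 1 line (0.0853) and with normalization within the line (0.0847). The AP-1 genes Fosl2 (-1.13 ± 0.279, adjusted p = 0.0638) and Jun (-0.69 ± 0.213, adjusted p = 0.177) did not pass. With the set as a block the count was 5 lower and 1 higher, with 2.52% of all genes called lower and 4.03% higher. Fosl2 (adjusted p = 0.000101), Jun (adjusted p = 0.00658) and Ets1 (-0.45, adjusted p = 0.0163) then joined the lower genes, and Jund (0.47, adjusted p = 0.0431) was higher. Fosl2 was at 10.44 and 10.04 at 0 h, 9.18 and 8.63 at 2 h, 9.20 and 8.95 at 4 h, then 9.64 and 9.06 at 8 h. Its arrays of the second set lay below those of the first at every time. In AtT-20, where 11 of the 13 were at the level needed for testing at 0 h and Etv4 and Fosl1 were not, 0 passed over 2 and 4 h, with a median of -0.09, and the values with the smallest p were those of Etv5 (-0.40), Nr3c1 (-0.37) and Fosl1 (0.59).

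Other serpins related to Serpinb2 were mostly dim. Of 10 listed genes of clades B and E, 2 were tested in 3134 and 0 were called. Serpinb9, an inhibitor of granzyme B, had a mean difference of -0.72 ± 0.303 (adjusted p = 0.462, but 0.0129 with the set as a block), and Serpinb8 had 0.05. In AtT-20 the genes of the remaining lists with the smallest p were Plgrkt (-0.36), St14 (-0.22), S100a10 (-0.08), Mrc2 (-0.41), Cav1 (0.50), Itga3 (-0.20), Pdgfc (-0.36), F2r (-0.35), Serpina3n (0.30), Serpinb6a (-0.11), Pebp1 (0.10), Serpinb8 (-0.04) and Serpinb9 (0.03), and 0 of them passed. Of these 13 genes, 7 were below the level needed for testing in AtT-20 at 0 h, where a fall could hardly show. They were S100a10, Mrc2, Cav1, F2r, Serpina3n, Serpinb8 and Serpinb9.

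**Figure D4:**
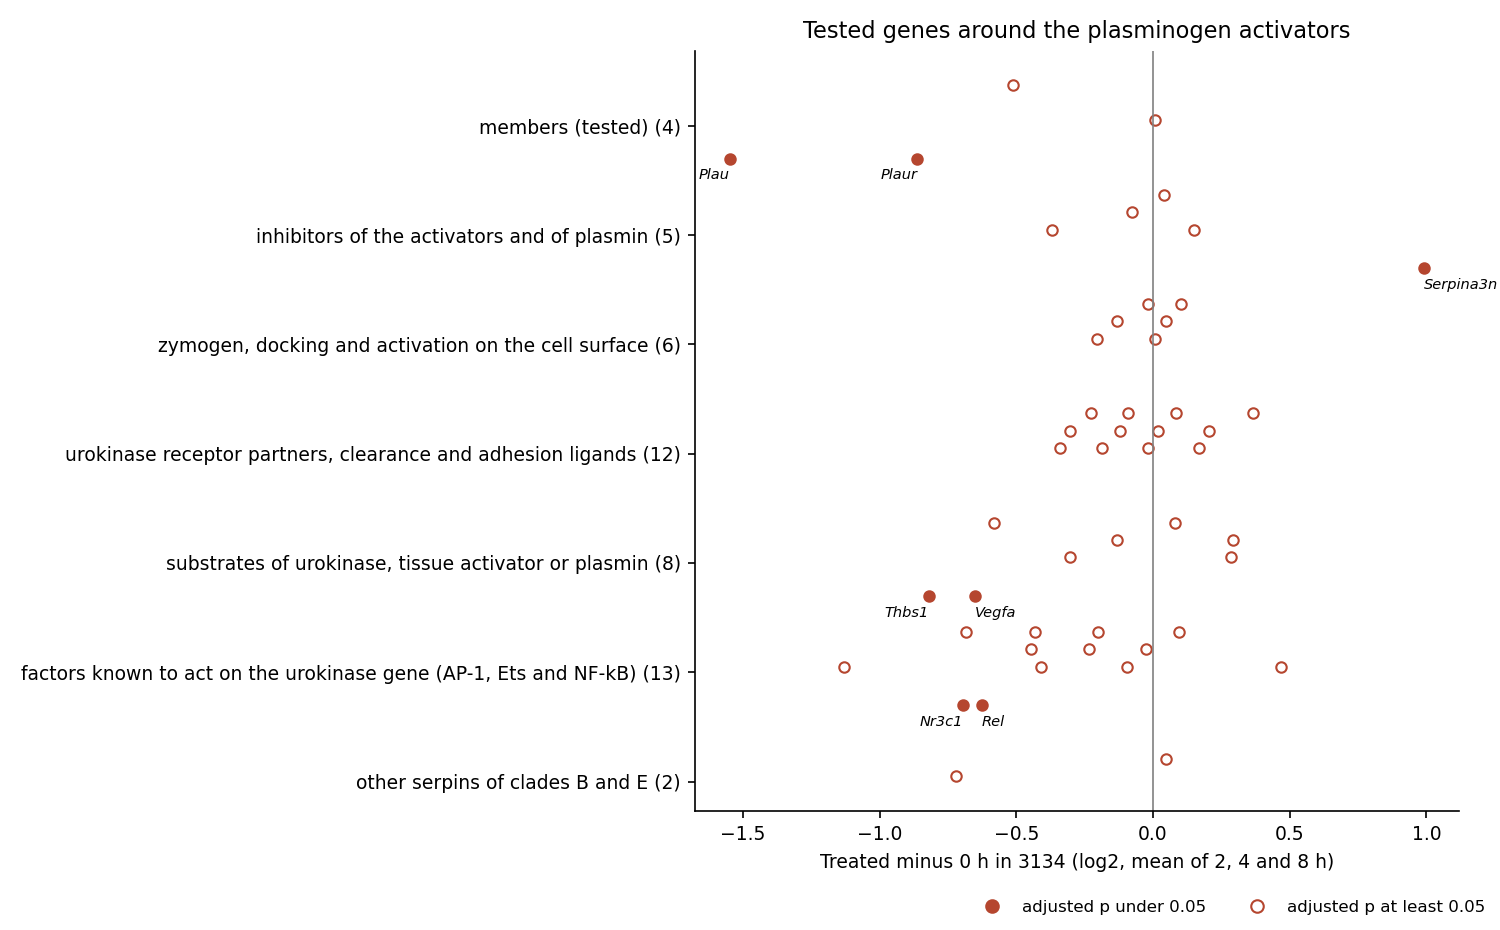
Log2 difference in 3134 over the mean of 2, 4 and 8 h against 0 h (horizontal axis) for each tested gene of the system, in 1 row for each list with the number tested in brackets, filled and named where the limma adjusted p was under 0.05, with heights within a row set only to separate points. Plau at -1.55 and Plaur at -0.86 lie lowest among the named genes, and Serpina3n at 0.99 is the 1 gene of these lists called higher.

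At 0 h genes of these lists differed between the lines in both directions, as did 54.5% of all tested genes. Of all tested genes 24.3% were called higher and 30.3% lower in 3134. A gene below the level needed for testing in 1 line could enter the test through the other alone, which largely fixed its direction. The counts below therefore describe the listed genes only. Of the 6 tested genes of zymogen, docking and activation, 2 were higher and 3 lower in 3134. Anxa2 was 3.69 ± 0.163 higher in 3134 on the log2 scale, and S100a10, dim in AtT-20 (4.32), was at least 57.9-fold higher. St14 was at 5.31 in 3134 and 7.46 in AtT-20, and Hpn, a membrane protease, at 6.16 in 3134 and 10.00 in AtT-20. Plgrkt was at 8.08 in both lines. Of the 12 partners, clearance receptors and adhesion ligands, 7 were higher and 3 lower in 3134. Itgb1 (0.42, limma adjusted p = 0.105) did not pass, but was called higher with the set as a block (adjusted p = 0.00846). Lrp1 was 3.58 ± 0.199 higher there, while Igf2r was at 9.20 in 3134 and 10.80 in AtT-20, and the lipoprotein receptor Vldlr at 4.00 in 3134 and 8.84 in AtT-20. Of the 8 substrates 7 were higher in 3134 and 1 lower, but 5 of the 8 were below the level needed for testing in AtT-20. Among these, fibronectin, Fn1, averaged 13.12 in 3134 and 4.68 in AtT-20. Of the 5 tested genes of the inhibitor list 2 were higher and 2 lower in 3134. Serpini1 was lower in 3134, at 4.44 ± 0.313 in 3134 and 9.13 ± 0.427 in AtT-20 (SD, n = 2 each), as was Serping1, at 4.44 in 3134 and 7.07 in AtT-20. Serpinb6a was higher in 3134, at 10.80 in 3134 and 7.20 in AtT-20, and Pebp1, at 10.71 in 3134 and 11.06 in AtT-20, did not pass. The other gene called higher, Serpina3n, was at 5.82 in 3134 and 4.14 in AtT-20. Both values lie below the level needed for testing, so little can be read from that call.

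The genes whose profile was most like that of a called member were found by the root mean square difference over the 6 log2 differences from 0 h, in both lines. For Plau these were Phlda1 (0.165), Ankrd1 (0.229) and Ier3 (0.283). Phlda1 had differences of -1.97, -1.48 and -1.51 at 2, 4 and 8 h in 3134, and Ankrd1, a transcriptional cofactor with ankyrin repeats, had -2.02, -1.64 and -1.24. For Plaur they were Btg1, an antiproliferative gene (0.0895), Adamts1, a secreted metalloprotease (0.162), and Dusp8, a phosphatase of MAP kinases (0.171). Btg1 had -1.10, -1.03 and -0.50 in 3134. The profiles share the 0 h arrays, and no test is given.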

How the data were processed

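RNA of 3134 and AtT-20 cells was measured on 15 one-colour Affymetrix exon arrays, grouped by the line and time in the sample titles. No label says that replicates came from separate cultures, so p-values cover only the spread from array to array, which may be technical. The deposited values are log2 intensities, 1 per exon probeset. The submitters' processing notes name Affymetrix Expression Console and RMA, with their versions, settings and genome build not given in the sources used here. GEO's platform annotation paired 207232 of 228090 probesets with a single gene symbol. Those with several symbols (3882) or none (16976) were left out. Symbols were checked against RefSeq (GRCm38.p6), where 14055 of 16207 were current, 2111 were updated and 41 stayed as given.

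Medians of the deposited columns differed between the 2 sets of serial numbers in the titles, with 7.83 to 8.14 in set 1 of 3134 and 6.76 to 7.20 in set 2, and 7.51 to 7.86 in set 1 of AtT-20 and 6.93 to 7.22 in set 2. All arrays were quantile normalized together. A gene's value was the median over at least 3 probesets. No 2 arrays correlated above 0.986, so none was treated as deposited again. limma 3.58.1 (lmFit and eBayes, 2-sided) in R 4.3.3 fitted 1 mean per group on 15 arrays, leaving 7 residual degrees of freedom, and p-values were adjusted over 9919 genes (Benjamini-Hochberg, threshold 0.05). Unequal change among exons was tested with diffSplice (Simes) on 147093 probesets. The tests were also tried on simulated data, where diffSplice called unchanged genes as well if probesets differed in spread. The test with a spread for each probeset, added after seeing the data, recovered fewer changed genes there.

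As a check of pairing by set, deviations from group means were correlated across genes. Over 9 pairs within a line r was 0.491 to 0.591, and over 12 pairs across lines 0.276 to 0.390, all above 0.1, and the pairing was accepted. The pairs across lines passed too, although the second sets of the lines have separate serial numbers. A threshold of 0.1 could thus hardly have refused the pairing. Fits that block on the set keep 5 residual degrees of freedom. They are given for the members where a call changes, and for some of the listed genes.

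Members and lists were chosen with earlier results of these data known. Named genes were the members, up to 4 tested genes of each list with the smallest p in 3134 and 3 in AtT-20, any listed gene that passed, and the 3 nearest profiles. Jund and Ets1 were named after their values were seen.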

Additional observations from a re-analysis of the deposited data

Results flagged for a closer look

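The difference between the lines in the response of Plau passed its own test. The log2 difference from 0 h in 3134 minus that in AtT-20 was -1.95 ± 0.274 at 2 h (limma adjusted p = 0.00992), -1.74 ± 0.274 at 4 h (adjusted p = 0.0152) and -1.85 ± 0.237 over their mean (adjusted p = 0.00347). Without single arrays the calls at 2 and 4 h were lost, with adjusted p of up to 0.0679 and 0.0891, and on the deposited scale all of them were lost (adjusted p = 1.00). Plau averaged 8.04 in 3134 and 4.99 in AtT-20 at 0 h, which in AtT-20 is below the level needed for testing.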

How the results depend on the processing

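Under the alternatives, leaving out arrays included, 77 of 1819 values changed sign, the largest of them 0.262 in size, with 0 called differences reversed. With the set of serial numbers as a replicate block, the differences of Plat at 4 h (-0.67) and over the mean (-0.51), of Plaur at 4 h (-0.96), and of Plaur between the lines (-1.05) gained a call. Beside these, the block changed the calls of Plaur between the lines at 2 h (-1.23) and of Plat over 2 and 4 h (-0.60), and no other call on the members' differences. The 3134 count over the mean became 400 higher and 250 lower, against 178 and 62. On the deposited scale without a block, calls were lost for Plau at 2 h (-2.12), 4 h (-1.91) and 8 h (-1.49), over the mean (-1.84) and between the lines at 2 h (-2.18), 4 h (-2.07) and over their mean (-2.13), for Plaur at 2 h (-1.29) and over the mean (-1.14), and for Plat at 0 h (1.04), as were those of Nr3c1, Rel, Serpina3n, Thbs1 (both lines) and Vegfa. Rel, Serpina3n and Thbs1 in AtT-20 also lost theirs under other settings given beside them. All-gene counts there were 20 higher and 4 lower, and the median of all genes moved to -0.26. On that scale with the block, chosen after seeing the data, counts were 157 higher and 384 lower, and calls were gained for Plat at 4 h (-0.96) and over the mean (-0.75), and for Plaur at 4 h (-1.30), 8 h (-0.85) and between the lines (-1.29). With arrays centred on the median, Plaur lost its call at 2 h (-1.21) and over the mean (-0.92), and with the block added after seeing the data Plat at 4 h (-0.68) and over the mean (-0.53) and Plaur at 4 h (-1.02) and between the lines (-1.20) gained one. Plaur at 2 h lost its call with bright probesets only (-1.14) and with no filter (-1.13, and -0.86 over the mean). Plaur at 4 h gained one with the mean over probesets (-0.81), a filter at the 50th percentile (-0.96), arrays of 1 line (-0.96) and normalization within the line (-0.99). The mean over probesets gave 271 higher and 119 lower genes and a call for Plau at 8 h against 2 h (0.83). The count of members with unequal change among exons was 1, against 0, with the replicate block and with it on the deposited scale. Without 1 array, Plaur ran from -1.20 to -1.05 at 2 h, from -1.04 to -0.88 at 4 h and from -0.95 to -0.77 over the mean, and Plau from -1.24 to -1.09 at 8 h. Plaur at 4 h gained a call without either 3134 array at 8 h, either AtT-20 array at 4 h or either at 0 h. The cause was not tested. Low signals limit what can be read about a fall of Plau and Plaur in AtT-20 and of Serpine2 in 3134.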
